A study of Mus musculus with 19 samples.

Results

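The genes described here encode the digestive machinery of the lysosome: 12 cathepsins and related proteases, 8 glycosidases, 5 other hydrolases, 3 soluble cofactors, 9 lysosomal membrane proteins and the transcription factor Tfeb, 38 genes in all. They were chosen by function, with earlier results of these data known. A list of mouse symbols was matched to the Ensembl identifiers of the count files through GENCODE release M21. All 38 were found among the 48709 genes of each file. Expression was measured by RNA-seq in the CA1 region of the hippocampus of 7-month-old mice, 1 library per animal, in 3 groups. There were 6 WT control libraries, from wild-type littermates. Their titles also name the mix, but a control oligonucleotide was taken as their treatment, as the study describes it. The 6 APP control libraries came from APPPS1-21 mice that also received that control oligonucleotide. The 7 libraries of APP anti-miR-mix came from APPPS1-21 mice given a mix of oligonucleotides against miR-148a-3p, miR-181a-5p and miR-146a-5p. All oligonucleotides were delivered in lipid particles into the dorsal hippocampus. APPPS1-21 mice carry mutant human transgenes, APP among them, under Thy1 regulatory sequence, which is active mainly in neurons, and deposit amyloid.

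Lysosomes are acidic organelles in which proteins, glycans and lipids are taken apart. Their enzymes are made in the endoplasmic reticulum, sorted to the lysosome and often activated there by cleavage, while heavily glycosylated membrane proteins protect the limiting membrane and carry ions and digestion products across it. Every brain cell has lysosomes, but phagocytes such as microglia carry particularly many, and many of the genes below are expressed at high levels in them. Mutations in GRN, CTSD, TPP1, PPT1, NPC1, HEXA and other genes of the list cause lysosomal storage or neurodegenerative disease in people.

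Libraries held between 19362343 and 37018917 counts, and mitochondrial genes took between 2.84% and 4.87% of them. Mouse Thy1, whose regulatory sequence drives the transgenes, had 18117 to 20734 normalized counts in WT control, 36153 to 62866 in the APP control group and 43203 to 54141 with the mix, so that no transgenic library fell within the wild-type range. The lowest transgenic value was that of APP control 6, and the next was 43203. The 4 genes of CA1 pyramidal neurons examined, Wfs1, Fibcd1, Pou3f1 and Mpped1, summed to between 20634 and 34627 normalized counts in every library. No markers of other subfields were set beside them, so they cannot tell CA1 from the rest of the hippocampus. APP control 5 stood apart from the other transgenic libraries: its microglia lineage score, the mean log2(normalized count + 1) of 12 microglial genes, was 9.44, within the 9.27 to 9.93 of WT control. APP control 6 had the next lowest score, 10.14, above every wild type and close to the lowest of the other 11 transgenic libraries, which ran from 10.18 to 10.91. APP control 5 also had the highest score for endothelial genes, 9.84, where no other library was above 9.50, and for border macrophage genes, 6.00, where none was above 5.86. WT control 1 and WT control 5 had the highest scores of their group, 9.79 and 9.93. Counts of called genes in the first comparison are also given without them.

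Levels can be compared between genes only per length. In TPM, which divides counts by the summed exon length of each gene and scales every library to the same total, the most abundant lysosomal gene in WT control was Psap, the precursor of the saposins that present sphingolipids to their hydrolases, at 2554 ± 222 TPM (SD, n = 6). Psap (ENSMUSG00000004207, GRCm38 chromosome 10, 60277627 to 60302597) by itself made up 40.5% of the summed TPM of the 38 genes. It was followed at a distance by the cysteine protease Ctsb at 503 ± 52.9, the membrane glycoprotein Lamp1 at 451 ± 37, the aspartic protease Ctsd at 446 ± 107 and the cysteine protease Ctss at 391 ± 133 TPM. The order of these 4 was not resolved, since each differed from the next by less than the larger SD of the pair. The length was the union of all annotated exons, whether or not each was used in CA1. It was 6489 bases for Ctsl and 1358 for Ctss, so the order between genes also depends on the annotation.

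Among the remaining cathepsins, the asparaginyl endopeptidase Lgmn had 242 ± 32.8 TPM and Ctsz, a carboxypeptidase, had 162 ± 44.5. Ctsa, a serine carboxypeptidase that also protects the sialidase Neu1, had 107 ± 12.6. Ctsl and Ctsf lay side by side at 54.8 ± 7.17 and 54.0 ± 3.91 TPM, below them came Ctso at 33.1 ± 3.45, Ctsh at 14.6 ± 5.06 and Ctsc at 9.86 ± 2.41, and Ctsk was the lowest of the 38 genes at 5.43 ± 0.954 TPM. Tfeb, the factor known to switch on many lysosomal genes, was also low, at 7.96 ± 1.45.

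The whole set took a larger part of the transcriptome in the transgenic groups. Its summed level was 6322 ± 611 TPM in WT control (SD, n = 6, lowest 5501 and highest 7350), 8877 ± 1667 in APP control (n = 6, 6703 to 10842) and 9242 ± 829 in APP anti-miR-mix (n = 7, 7833 to 10127). The share held by Psap was 29.9% in APP control, while the share of Ctsd went from 6.99% in WT control to 13.01% in APP control, and it was 14.0% with the mix.

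**Figure D1:**
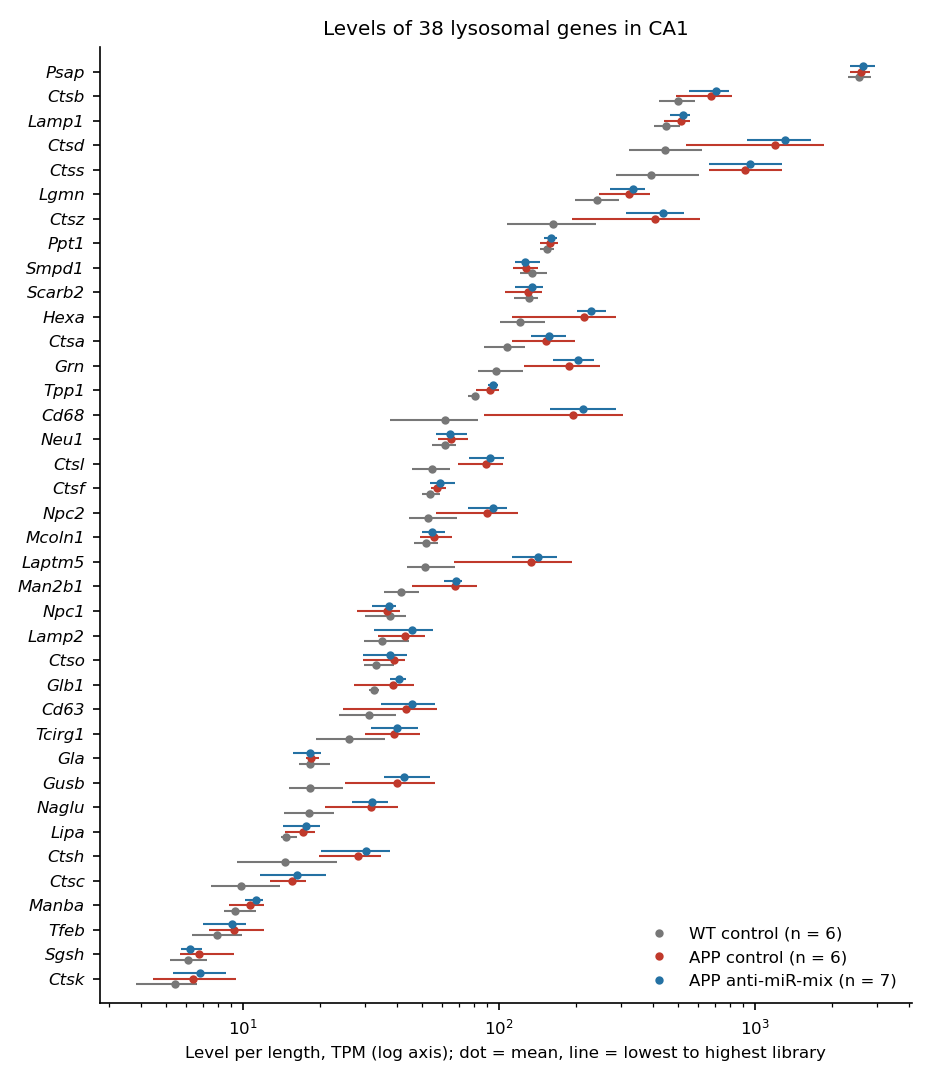
Level of each of the 38 genes in TPM on a log axis, with the group mean as a dot and a line from the lowest to the highest library. Psap stands alone at 2554 TPM in WT control, and the 3 lines of Psap overlap, whereas those of Ctsd, Ctsz, Cd68, Laptm5 and Gusb are shifted to the right in both transgenic groups.

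The first comparison asked which lysosomal genes differ between APPPS1-21 and wild-type mice that both received the control. Higher levels in APP control than WT control were called for 19 of the 38 genes, and lower levels for 0 (DESeq2 adjusted p under 0.05). Over all 19297 genes tested, 3.66% were called higher and 1.05% lower. The median log2 fold change of the 38 was 0.36, against -0.01 for all genes tested, and 35 of the 38 had a positive estimate. By role, 9 of 12 cathepsins, 4 of 8 glycosidases, 2 of 3 cofactors, 3 of 9 membrane proteins and 1 of 5 other hydrolases were called higher. Differences between roles were not tested. edgeR also called 19 of the 38, against 2.78% of all genes higher. In bulk tissue, more cells of a type and more RNA per cell cannot be told apart.

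Among membrane proteins the called genes were led by Cd68 and Laptm5, both typical of phagocytes. Cd68, which encodes macrosialin, a glycoprotein of macrophage late endosomes and lysosomes (ENSMUSG00000018774, chromosome 11, 69664213 to 69666153), had 344 to 730 normalized counts in WT control (median 513), 783 to 2675 in the APP control group (median 1783) and 1415 to 2643 with the mix (median 1867). The groups did not overlap between WT control and APP control, and the log2 fold change was 1.67 (SE 0.27, adjusted p = 2.14e-07), the largest of the 38. Laptm5, a lysosomal transmembrane protein of immune cells (ENSMUSG00000028581, chromosome 4, 130913125 to 130936141), had 1138 to 1747 counts in WT control (median 1325) and 1799 to 5067 in APP control (median 3915), again without overlap. Its change was 1.37 (SE 0.20, adjusted p = 5.16e-09).

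Tcirg1, a subunit of the vacuolar proton pump, was the third membrane protein called. It had 644 to 1138 counts in WT control (median 826) and 977 to 1580 in APP control (median 1294), with overlapping groups and a log2 fold change of 0.58 (SE 0.14, adjusted p = 0.00188). The other 6 membrane proteins did not pass in this fit, and for some the call depended on it. Lamp1, which lines lysosomes of all cells (ENSMUSG00000031447, chromosome 8, 13159161 to 13175338), had 7732 to 9361 counts in WT control (median 8439) and 8388 to 10851 in APP control (median 9792), a log2 difference of 0.19 (SE 0.07, adjusted p = 0.12). The tetraspanin Cd63 was just outside the threshold at 0.49 (SE 0.16, adjusted p = 0.0503), and it was called in 7 of 13 alternatives and in 6 of 19 fits that left out a library. Lamp2 had 0.31 (SE 0.15, adjusted p = 0.302), and 1 of 13 alternatives called it, the fit with replicate number as a block. For the calcium channel Mcoln1, the enzyme receptor Scarb2 and the cholesterol exporter Npc1 the estimates were 0.11, -0.01 and -0.04, and the 95% interval for Npc1 ran from -0.22 to 0.14.

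Cathepsins were the group with most calls. Ctsd (ENSMUSG00000007891, chromosome 7, 142375911 to 142388038) had 5534 to 10059 counts in WT control (median 6714), 9011 to 30386 in the APP control group (median 21299) and 15523 to 28024 with the mix (median 21979). Only APP control 5, at 9011, lay inside the wild-type range, and the log2 fold change was 1.43 (SE 0.23, adjusted p = 2.11e-07). Ctsz had 1131 to 2376 counts in WT control (median 1525) and 1980 to 6135 in APP control (median 4385), a change of 1.32 (SE 0.23, adjusted p = 1.38e-06). Ctss, a protease active at neutral pH that trims the invariant chain in antigen-presenting cells (ENSMUSG00000038642, chromosome 3, 95526786 to 95556403), had 2694 to 5654 counts in WT control (median 3224) and 6388 to 12537 in APP control (median 8910). These groups did not overlap, and the change was 1.23 (SE 0.21, adjusted p = 5.98e-07).

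The other called cathepsins changed less. For the aminopeptidase Ctsh, WT control had 310 to 722 counts (median 429) and APP control 628 to 1088 (median 948), a log2 fold change of 0.94 (SE 0.21, adjusted p = 0.000344). Ctsl had 2163 to 2871 counts in WT control (median 2448) and 3190 to 4668 in APP control (median 4249), without overlap, and changed by 0.70 (SE 0.11, adjusted p = 2.21e-08). Ctsl therefore moved less than Ctsh but with a smaller standard error. For Ctsc, which activates serine proteases of immune cells, 297 to 556 counts (median 399) were set against 517 to 727 (median 660), with 0.66 (SE 0.16, adjusted p = 0.00125). Ctsa had 3009 to 4113 counts in WT control (median 3555) and 3747 to 6524 in APP control (median 5298), with 0.52 (SE 0.12, adjusted p = 0.000913).

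Ctsb and Lgmn closed the list of called proteases. Ctsb, a cysteine protease, had 18556 to 24264 counts in WT control (median 21306) and 21086 to 35507 in APP control (median 30019), a log2 fold change of 0.43 (SE 0.12, adjusted p = 0.0114). Lgmn had 3350 to 4709 counts (median 3869) and 4048 to 6276 (median 5303) in the same order, with 0.41 (SE 0.11, adjusted p = 0.00648). The call on Ctsb was lost without APP control 2 or APP control 4. Ctso, Ctsk and Ctsf had estimates of 0.23, 0.23 and 0.09 and did not pass. Exons of 12 of the 38 genes (Ctsa, Ctsb, Ctsd, Ctsl, Ctsz, Lamp1, Hexa, Glb1, Grn, Npc1, Ppt1 and Sgsh) overlap exons of other annotated genes, and whether reads were counted by strand was not stated in the sources used here.

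**Figure D2:**
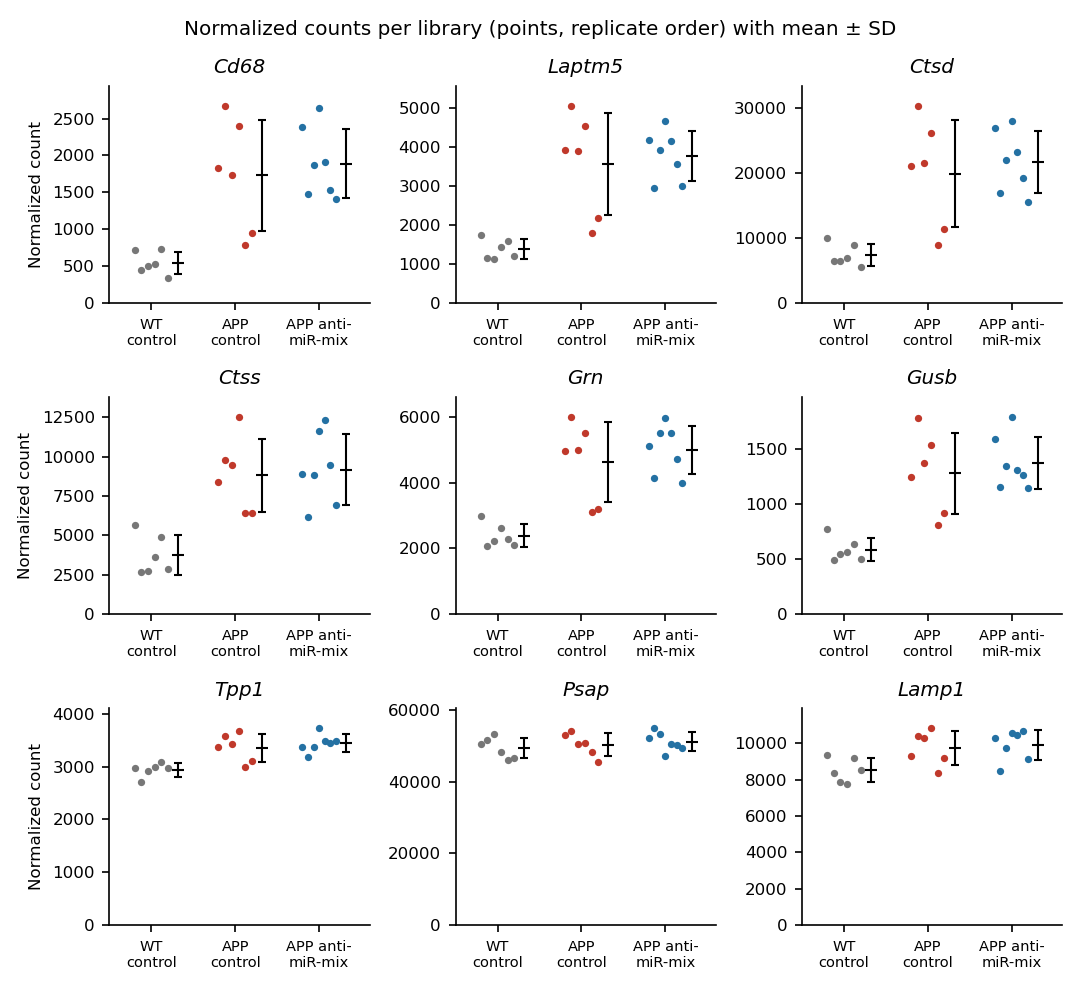
Normalized counts of 9 lysosomal genes, with 1 point per library in replicate order and the mean ± SD beside each group. For Cd68, Laptm5, Ctsd, Ctss, Grn and Gusb the last 2 points of APP control (replicates 5 and 6) are the lowest of that group, while Psap lies at similar heights in all 3 groups.

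Of the 8 glycosidases, Gusb, Hexa, Naglu and Man2b1 rose. Gusb, β-glucuronidase (ENSMUSG00000025534, chromosome 5, 129989011 to 130003049), had 491 to 770 counts in WT control (median 555) and 811 to 1780 in APP control (median 1312). The groups did not overlap, and the log2 fold change was 1.13 (SE 0.17, adjusted p = 1.09e-08). Hexa, the α subunit of β-hexosaminidase, had 1472 to 2067 counts (median 1660) against 1594 to 3985 (median 3409), with 0.83 (SE 0.17, adjusted p = 5.34e-05). Naglu, which degrades heparan sulfate, had 271 to 415 (median 349) against 394 to 748 (median 613), with 0.80 (SE 0.15, adjusted p = 5.97e-06). Man2b1, the acid α-mannosidase, had 2085 to 2683 (median 2340) against 2602 to 4596 (median 4230), with 0.71 (SE 0.12, adjusted p = 3.54e-07). Glb1 and Manba, the β-galactosidase and β-mannosidase, had smaller estimates of 0.24 (adjusted p = 0.153) and 0.20 (adjusted p = 0.134), and Neu1 and Gla had 0.08 and 0.02.

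Among the other hydrolases, Tpp1, a tripeptidyl peptidase, was called with a small difference between overlapping groups. It had 2700 to 3092 counts in WT control (median 2972) and 2999 to 3670 in APP control (median 3400), a log2 fold change of 0.19 (SE 0.05, adjusted p = 0.0122). The call was lost without APP control 2 or APP control 4. The acid lipase Lipa had 0.21 (adjusted p = 0.155) and Sgsh, a heparan sulfatase, had 0.14. Ppt1, a thioesterase, and Smpd1, the acid sphingomyelinase, had 0.05 and -0.07, with 95% intervals from -0.04 to 0.13 and from -0.19 to 0.05.

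The 3 cofactors divided sharply. Grn, progranulin, a secreted and lysosomal protein that microglia express strongly (ENSMUSG00000034708, chromosome 11, 102430315 to 102437048), had 2076 to 2973 counts in WT control (median 2249) and 3097 to 6002 in APP control (median 4972). There was no overlap, and the log2 fold change was 0.96 (SE 0.15, adjusted p = 1.06e-07). Npc2, the soluble cholesterol carrier that hands cholesterol to Npc1, had 1764 to 2566 (median 1958) against 2194 to 4491 (median 3594), with 0.76 (SE 0.15, adjusted p = 6.54e-05). Psap, by far the most abundant of the 38, had 45987 to 53243 counts in WT control (median 49373) and 45522 to 53976 in APP control (median 50586), and its estimate was 0.03 with a 95% interval from -0.07 to 0.13.

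Tfeb (ENSMUSG00000023990, chromosome 17, 47737030 to 47792419) had 257 to 388 counts in WT control (median 309), 298 to 478 in the APP control group (median 363) and 282 to 413 with the mix (median 379). The groups overlapped widely, and the log2 difference between APP control and WT control was 0.23 (SE 0.13, adjusted p = 0.479).

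In 6 of the 38 genes (Laptm5, Gusb, Ctsl, Grn, Cd68 and Ctss) every APP control library lay above every WT control library, which held for 1.20% of all genes tested. For 15 of the 19 called genes APP control 5 and APP control 6 were the lowest of the 13 transgenic libraries, and for 15 of the 19 WT control 1 and WT control 5 were the highest of the wild types. Among the 19 genes not called these counts were 2 and 5. The called genes also varied more between animals within APP control, with a median coefficient of variation of 24.6%, against 10.7% for the genes not called, and the same held in WT control (16.1% against 7.85%) and with the mix (14.8% against 7.61%). Without APP control 5 and APP control 6, 24 of the 38 were called higher and 0 lower (4.91% of all genes higher), and without WT control 1 and WT control 5 there were 22 and 0 (4.62%). For most called genes each pair stood at the end of its group that faces the other group. Leaving a pair out therefore widens the difference by construction, and these counts add no support. Leaving out APP control 5 and APP control 6 was also chosen after seeing the data. The 5 genes added without APP control 5 and APP control 6 were Cd63 at 0.69 (adjusted p = 7.48e-06), Glb1 at 0.40 (adjusted p = 2.00e-11), Lipa at 0.30 (adjusted p = 0.0109), Lamp1 at 0.26 (adjusted p = 0.0107) and Manba at 0.23 (adjusted p = 0.0391).

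**Figure D3:**
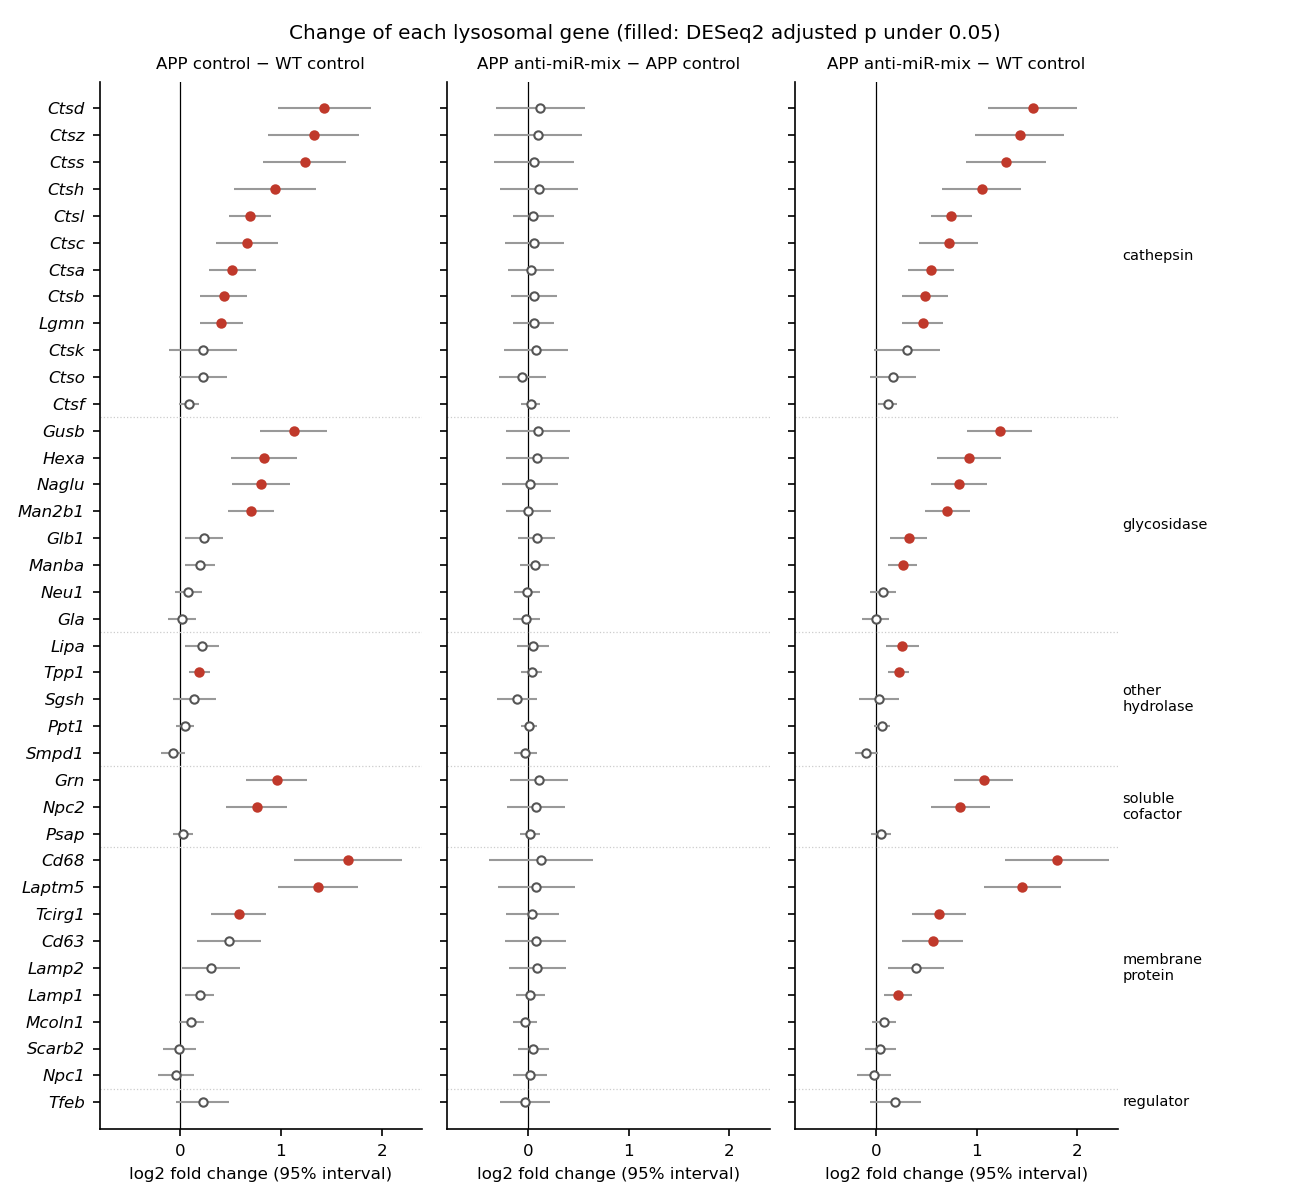
The log2 fold change of each gene, ordered by role, with its 95% interval in the 3 comparisons, where filled points passed an adjusted p of 0.05. The left panel holds 19 filled points and the right panel 24, all above 0, and in the middle panel every interval covers 0.

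The second comparison asked whether the mix of microRNA inhibitors moved these genes in APPPS1-21 mice. None of the 38 genes was called by DESeq2 or by edgeR when APP anti-miR-mix was compared with APP control (0 of all genes, 0.0%, by either tool), and none had an unadjusted p under 0.05 in DESeq2, which 552 of all genes tested (2.86%) had. Estimates ran from -0.11 for Sgsh to 0.13 for Cd68 on the log2 scale, with a median of 0.05, and no gene had groups that did not overlap. Cd68, Ctsd and Laptm5 had medians of 1867, 21979 and 3928 normalized counts in APP anti-miR-mix, beside 1783, 21299 and 3915 in APP control.

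Ordered by the p-value of the Wald test, Sgsh came first, with 183 to 208 counts in APP anti-miR-mix (median 192) and 178 to 283 in APP control (median 200). Its log2 difference was -0.11 (SE 0.10), with a 95% interval from -0.31 to 0.09. Next were Glb1 at 0.09 (SE 0.09), Manba at 0.07 (SE 0.07), Grn at 0.11 (SE 0.15) and Tpp1 at 0.04 (SE 0.05), all with intervals across 0. Lamp1, Npc1 and Tfeb had 0.02, 0.02 and -0.03.

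How large a difference these groups could have hidden varied by gene. For Tpp1 the 95% interval ran from -0.07 to 0.14 and for Ctsb from -0.17 to 0.29, whereas for Cd68 it ran from -0.39 to 0.64 and for Ctsd from -0.32 to 0.57. Without APP control 5 and APP control 6 the median of the 38 estimates changed sign, from 0.05 to -0.08, 26 of the 38 estimates changed sign, and the smallest adjusted p among them was 0.582. Leaving out APP control 5 alone changed the sign of 19 estimates and gave a median of -0.015, and leaving out APP control 6 alone changed 10. Over all genes the fit without both called 14, and none of them was a member.

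The third comparison set APP anti-miR-mix against the same WT control libraries as the first, so its values are not independent of those above. Here 24 of the 38 genes were higher and 0 lower, while 5.59% of all genes tested were called higher and 3.36% lower. The median log2 fold change was 0.43, and edgeR called 23, with 4.57% of all genes called higher. In 15 of the 38 genes every APP anti-miR-mix library lay above every WT control library (2.52% of all genes). The largest changes were again those of Cd68 at 1.79 (SE 0.26, adjusted p = 1.87e-09), Ctsd at 1.56 (SE 0.23, adjusted p = 1.25e-09), Laptm5 at 1.46 (SE 0.20, adjusted p = 3.67e-11) and Ctsz at 1.43 (SE 0.22, adjusted p = 2.28e-08).

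The genes called here but not in the first comparison were Cd63, Manba, Glb1, Lipa and Lamp1. Cd63 had 908 to 1435 counts in APP anti-miR-mix (median 1216) against 635 to 1003 in WT control (median 816), a log2 fold change of 0.56 (SE 0.16, adjusted p = 0.00618). Glb1 had 805 to 905 counts (median 882) against 663 to 708 (median 690), without overlap, and changed by 0.33 (SE 0.09, adjusted p = 0.00813). Exons of Glb1 overlap those of Tmppe on the same strand. Manba, Lipa and Lamp1 changed by 0.27 (adjusted p = 0.00665), 0.27 (adjusted p = 0.0204) and 0.22 (adjusted p = 0.0295). These are differences in which side of the threshold a gene fell: between the 2 transgenic groups the 5 genes differed by 0.02 to 0.09, inside their intervals. The calls on Lamp1 and Lipa were lost when single libraries were left out, in 8 and 4 of 19 cases, and edgeR did not call Lamp1 (adjusted p = 0.0569). Lamp2 lay just outside the threshold at 0.40 (adjusted p = 0.0519), and was called in 9 of 13 alternatives and in 6 of the 19 fits that left out a library.

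Other genes of lysosomal biology were examined by function, in 6 further lists. Of 29 other hydrolases and activators, 8 were higher in APP control than WT control and 0 lower, with a median log2 difference of 0.18, beside the 3.66% and 1.05% of all genes. Dnase2a, the acid DNase, had 176 to 256 counts in WT control (median 213) and 261 to 476 in APP control (median 386), a log2 fold change of 0.79 (SE 0.14, adjusted p = 2.76e-06). Scpep1, a serine carboxypeptidase, changed by 0.41 (SE 0.08, adjusted p = 3.43e-05) and Pla2g15, the lysosomal phospholipase, by 0.32 (SE 0.09, adjusted p = 0.00685). edgeR called 6 of the 29. In APP anti-miR-mix against WT control 15 were higher and 1, the acetyltransferase Hgsnat, was lower at -0.16 (SE 0.05, adjusted p = 0.0126), beside 5.59% and 3.36% of all genes. edgeR called 13 higher and 0 lower there, with an adjusted p of 0.0638 for Hgsnat.

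Of 22 other lysosomal membrane proteins, 3 were higher in the first comparison, where 3.66% of all genes were: the peptide and histidine transporter Slc15a3 at 1.67 (SE 0.24, adjusted p = 8.57e-10), the phagosomal metal transporter Slc11a1 at 1.57 (SE 0.21, adjusted p = 1.40e-10) and the channel Tpcn2 at 0.37 (SE 0.11, adjusted p = 0.0233), which edgeR did not call. The median of this list was 0.06. With the mix, 6 of the 22 were higher than in WT control by DESeq2 and 3 by edgeR, beside 5.59% and 4.57% of all genes. The vacuolar proton pump, which acidifies the lysosome, had 19 subunits and accessory proteins tested besides Tcirg1, with a median of -0.06. Of these, Atp6v0d2, a subunit found in osteoclasts and macrophages, was called at 1.81 (SE 0.51, adjusted p = 0.0122) on 1 to 12 counts per library in WT control and 11 to 44 in APP control, and edgeR did not call it (adjusted p = 0.0674). A single call of 19 is near the 3.66% of all genes. That count leaves out Tcirg1, the pump subunit described above among the membrane proteins, which was also called higher. The comparison with all genes therefore holds for the other subunits only, not for the whole pump.

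Of 5 tested genes from a list of 8 that encode cathepsin inhibitors and related proteins, 3 rose: Cst7, cystatin F, from 27 to 251 counts in WT control (median 45) to 338 to 2989 in APP control (median 1936), a log2 fold change of 4.25 (SE 0.57, adjusted p = 1.20e-10), the secreted Cst3, cystatin C, at 0.40 (SE 0.11, adjusted p = 0.0125) and the cytosolic Cstb, cystatin B, at 0.26 (SE 0.07, adjusted p = 0.0116). Of 10 genes for sorting and delivery of enzymes, Sort1, the sortilin receptor that also binds progranulin, was lower at -0.19 (SE 0.06, adjusted p = 0.0346 in DESeq2 and 0.115 in edgeR) and the others, among them the mannose 6-phosphate receptor genes, did not pass. Over all genes 1.05% were lower and 3.66% higher. Of 15 genes of transcriptional and mTORC1 control, Fnip2 was higher at 0.25 (SE 0.08, adjusted p = 0.0377 in DESeq2 and 0.0704 in edgeR). edgeR called 0 genes of these 2 lists there. In the third comparison Sort1 was lower at -0.26 (SE 0.06, adjusted p = 0.000181 in DESeq2 and 0.00912 in edgeR), without overlap between the groups, and Vps41, a subunit of a tethering complex for late endosomes, at -0.12 (SE 0.03, adjusted p = 0.00161, and 0.0694 in edgeR), where 3.36% of all genes were lower. Fnip2 was then called by both tools at 0.25 (adjusted p = 0.0151 and 0.0329), as were Atp6v0d2, Cst7 and Cst3, whereas Cstb was called by DESeq2 only. With the mix compared with APP control, DESeq2 and edgeR called 0 genes of these 6 lists, and 0 had an unadjusted p under 0.05 in DESeq2.

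**Figure D4:**
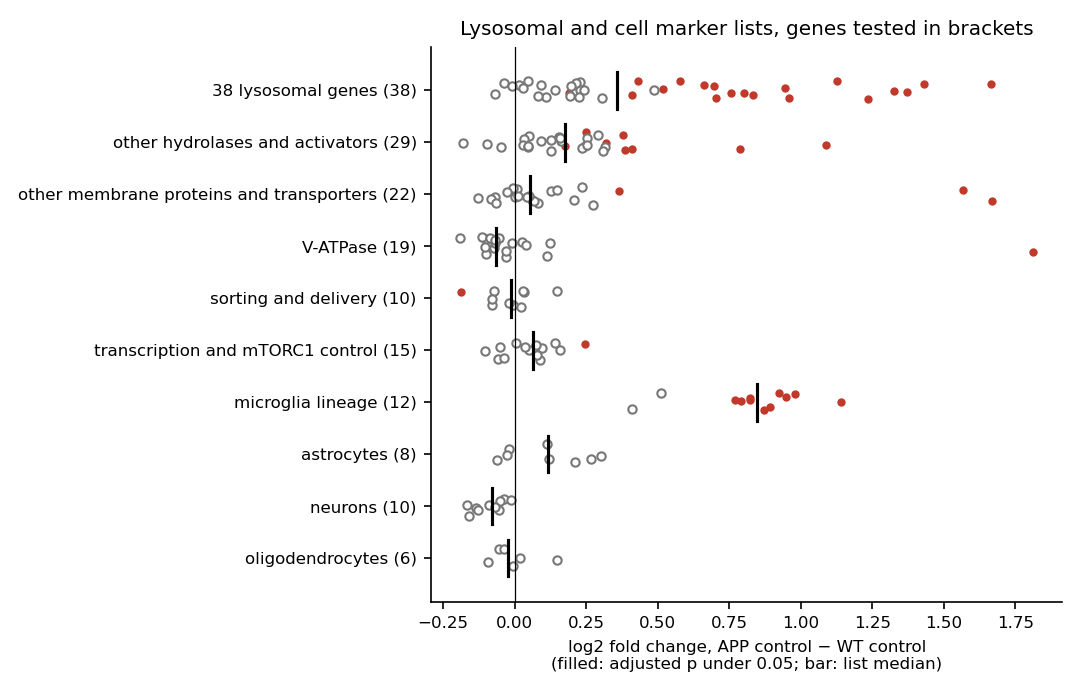
The log2 fold change of each tested gene in the first comparison, for the lists shown, with the list median as a bar and filled points at adjusted p under 0.05. The medians of the 38 lysosomal genes and of the microglia lineage list are 0.36 and 0.85. Those of the proton pump list, which leaves out Tcirg1, and of the neuron list lie below 0 at -0.06 and -0.08.

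Markers of cell types moved with the comparison, and lists without any of the 38 genes were used to show it. Of 12 microglia lineage genes, among them Csf1r, Cx3cr1 and P2ry12, 10 were higher in APP control than WT control, with a median log2 fold change of 0.85, beside 3.66% of all genes called higher. edgeR also called 10. Their summed normalized counts ranged from 10919 to 16038 (WT control), 13036 to 30282 (APP control) and 20936 to 31503 (APP anti-miR-mix). Of 9 genes that microglia raise around amyloid, such as Trem2, Clec7a and Cst7, 8 were higher in DESeq2 and 7 in edgeR, with a median of 2.18 and sums of 4135 to 7212, 6967 to 21501 and 12501 to 23125. Cst7 also stands among the cathepsin inhibitors above. No marker of these lists had a median of 0 counts in any group.

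For the other cell types fewer markers or none were called, where 3.66% of all genes were higher in DESeq2 and 2.78% in edgeR. Of 6 border macrophage genes 2 were higher in DESeq2 and 0 in edgeR, with sums of 121 to 229 counts in WT control, 145 to 440 in the APP control group and 230 to 414 with the mix. Of 6 endothelial genes 2 were higher in DESeq2 and 1 in edgeR, with sums of 3393 to 4562, 3982 to 6451 and 3426 to 5102. Without APP control 5 the DESeq2 counts were 0 border macrophage genes and 1 endothelial gene, and leaving out APP control 3, WT control 2 or WT control 6 gave the same counts. Without WT control 4 there was 1 of each, without WT control 5 there was 1 border macrophage gene, and without APP control 1 or APP control 4 there were 3. None was called in DESeq2 among 8 astrocyte, 10 neuron, 6 oligodendrocyte, 6 tested choroid plexus and 4 CA1 pyramidal neuron genes, where edgeR also called 0 and where 1, 1, 0, 1 and 0 had an unadjusted p under 0.05, beside 13.7% of all genes. All 10 neuron genes had negative estimates, with a median of -0.08. In the third comparison DESeq2 called 11 of 12 microglia lineage genes, 9 of 9 genes raised around amyloid, 4 of 6 border macrophage and 2 of 6 endothelial genes higher, and edgeR 10, 9, 0 and 2, beside 5.59% and 4.57% of all genes. For the mix against APP control neither tool called a marker of these lists. There 2 of 4 CA1 pyramidal neuron genes, with estimates of the 4 from -0.55 to 0.58, had an unadjusted p under 0.05 in DESeq2. So had 1 of 9 genes raised around amyloid, beside 2.86% of all genes. The part of the cell type differences in the lysosomal result was not tested.

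Within the 13 transgenic libraries the lysosomal genes tracked the microglia lineage score to different degrees. The score and each gene, as log2(normalized count + 1), were centred on their group means, so that the differences between the 2 groups did not enter, and p-values came from 100000 two-sided permutations within groups, adjusted over the 38 genes for each of 3 marker lists. For the 19 genes called in the first comparison, Pearson's r ran from 0.57 (Ctsc) to 0.95 (Hexa) with a median of 0.89, Spearman's rho ran from 0.72 to 0.94, and all 19 had an adjusted p under 0.05 by both measures. The share of all genes that would pass was not computed, so these counts have no background beside them. Leaving out the 2 libraries farthest from the median score gave r from 0.47 to 0.93. Ctsd had r = 0.93 (adjusted permutation p = 0.000127, the smallest these permutations and this adjustment gave) and rho = 0.92 (adjusted permutation p = 0.000665).

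The genes not called were mixed. Of these 19, 8 had an adjusted p under 0.05 by r and 7 by rho. Lamp1 had r = 0.87 and rho = 0.85 (0.82 for r without the 2 libraries), Tfeb 0.79 and 0.83 (0.78), Lipa 0.81 and 0.86 (0.81) and Cd63 0.89 and 0.70 (0.71). For Psap r was 0.20 and rho 0.13, and for Gla 0.04 and 0.07. Within the groups the signs differed, with r of 0.62 in APP control and -0.69 with the mix for Psap, and -0.43 and 0.57 for Gla, and this difference was not tested. Npc1 and Scarb2, with r of 0.79 and 0.67, fell to 0.43 and 0.08 without the 2 libraries, so these relations by r rest on them. By rank, Npc1 had rho = 0.64 (adjusted permutation p = 0.0436) and Scarb2 had 0.50 (adjusted permutation p = 0.146). Mcoln1 had a negative r of -0.68 (adjusted permutation p = 0.0672) that became -0.03 without them. Its rho was -0.57 (adjusted permutation p = 0.0757), and r within the groups was -0.61 in APP control and -0.92 with the mix. Against the neuron and astrocyte scores, none of the 38 genes had an adjusted p under 0.05, and for the 19 called genes the median r was -0.40 and 0.07.

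**Figure D5:**
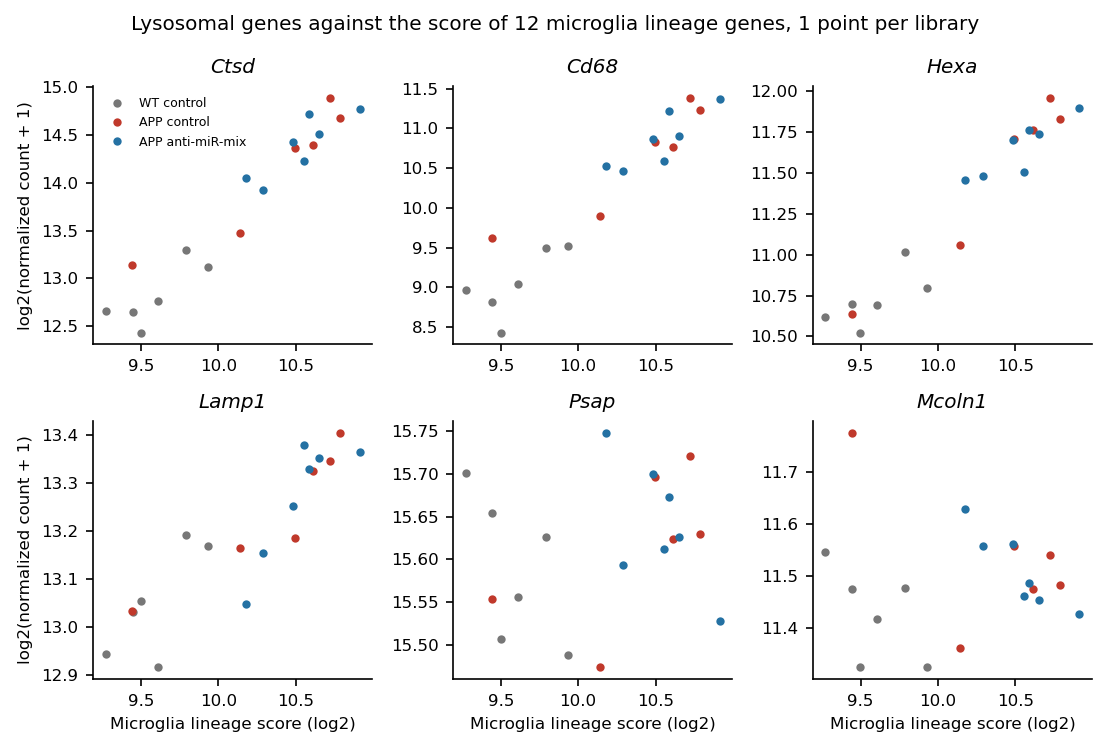
The log2 normalized count of 6 lysosomal genes against the microglia lineage score, with 1 point per library. Ctsd, Cd68, Hexa and Lamp1 rise along the score in both transgenic groups, APP control 5 sits at a score of 9.44 among the wild types, and Psap and Mcoln1 show no such rise.

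Promoters were read because Tfeb and related factors bind E-box sequences in many lysosomal genes. RefSeq promoter windows on GRCm38.p6, from 250 bases before to 50 bases after the start, were matched by symbol for 35 of the 38 genes, and those of Ctsb, Ctsh and Npc1 were not matched. The palindrome CACGTG was in 11 of the 35 windows (31.4%), against 8.09% of 27025 genes with a window. The longer GTCACGTG, searched on both strands and containing the shorter motif, was in 9 (25.7%, against 2.55% of genes). The palindrome TCACGTGA, which also contains it, was in 4 (11.4%, against 1.12%). CACGTG was in 5 of 17 genes called in the first comparison that had a window, and in 6 of 18 that were not called. A match describes letters in this window only. The end of the window was found near a GENCODE transcript start for 29 of the 35 genes.

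The following stretches are given 5′ to 3′ on the strand of the gene, with CACGTG in capitals, for called proteases and a glycosidase and then for genes that were not called in the first comparison. Ctsd holds the motif 98 and 245 bases before the RefSeq start, and Lamp1 holds 4 copies before it, of which the copy inside the longer motif is shown. The nearer Ctsd stretch and those of Ctsa, Lgmn, Naglu and Mcoln1 do not lie wholly before the first base of the gene in GENCODE.
Ctsd, chr7:142387908-142387937, minus strand: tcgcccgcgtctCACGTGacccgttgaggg
Ctsd, chr7:142388055-142388077, minus strand: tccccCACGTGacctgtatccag
Ctsa, chr2:164833749-164833772, plus strand: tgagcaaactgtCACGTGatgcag
Lgmn, chr12:102439124-102439153, minus strand: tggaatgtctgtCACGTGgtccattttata
Naglu, chr11:101070009-101070038, plus strand: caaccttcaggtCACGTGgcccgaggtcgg
Lamp1, chr8:13159121-13159150, plus strand: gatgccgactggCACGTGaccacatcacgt
Mcoln1, chr8:3500462-3500491, plus strand: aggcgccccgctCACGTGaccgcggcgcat
Glb1, chr9:114401018-114401047, plus strand: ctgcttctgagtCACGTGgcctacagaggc

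Set beside the expression values, the genes printed here had log2 differences in the first comparison from 1.43 for Ctsd, through 0.80 for Naglu, 0.52 for Ctsa, 0.41 for Lgmn, 0.24 for Glb1 and 0.19 for Lamp1, to 0.11 for Mcoln1. Sgsh and Gla, whose windows also hold GTCACGTG and are not printed, had 0.14 and 0.02. Cd68 and Laptm5, with changes of 1.67 and 1.37, had no CACGTG in their windows.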

How the data were processed

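RNA from mouse CA1 was sequenced in 19 libraries. The authors deposited raw read counts per Ensembl gene, made with STAR (2.5.2b) on mm10 and featureCounts of Subread (1.5.1) after FastQC (0.11.5), per the submitters' notes. They also deposited a log2 table of 18825 genes. That table differs from log2(CPM + 1) of the counts by a slope per gene times a whole number from 1 to 5 per library (the adjustment number, of unstated meaning), and served only as an alternative.

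Genes with at least 5 counts in 50% of samples (19297) entered DESeq2 (1.42.0), with the tool, filter and threshold of the study. A single fit of all groups was chosen here, with Wald tests, unshrunken log2 fold changes and Benjamini-Hochberg adjusted p under 0.05. All 38 lysosomal genes passed. DESeq2 could replace outlying counts only in groups of 7 or more and did so for 13 genes. Normalized counts use DESeq2 size factors. TPM used exon lengths of GENCODE M21. Alternatives were edgeR (4.0.16) quasi-likelihood tests, limma (3.58.1) on the log2 table, other filters, scaling, blocks and left-out libraries. Leaving out APP control 5 and APP control 6 was chosen after seeing the data. R (4.3.3), Python (3.11.15), numpy (2.4.6), scipy (1.17.1), pandas (2.3.3) and matplotlib (3.10.9) were used, and the tests were first tried on simulated counts.

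The members and all lists were chosen with earlier results of these data known. All 38 genes are accounted for, those called in the first comparison with full values, Tfeb, Lamp1, Grn and Npc1 in any case, the 5 smallest p-values for the mix, and up to 5 called genes of each further list, some of which are not reported here. Each library was 1 animal per the labels, and no pair of libraries of the same group had a chi-square per gene under 4.94, so none was counted as a duplicate. Total counts per library were 19362343 to 37018917. Intervals are from the fit and carry the spread between animals.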

Additional observations from a re-analysis of the deposited data

How the results depend on the processing

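The count of lysosomal genes called for APP control against WT control was 18 to 24 over 13 alternatives and 17 to 23 when each of the 19 libraries was left out in turn, always with higher levels. For the mix against WT control it was 23 to 26 and 22 to 25, and for the mix against APP control it was 0 in every fit. The medians of the 38 log2 differences ran from 0.32 to 0.46, 0.39 to 0.53 and -0.08 to 0.08 in the same order over the alternatives, and from 0.33 to 0.42, 0.40 to 0.49 and -0.02 to 0.09 with single libraries left out. Of the 19 calls against WT control in APP control, 17 held in all fits: Ctsb was lost without APP control 2 or 4, and Tpp1 was lost without either and in the fit of 2 groups only. Of the 24 calls with the mix, 22 held, the exceptions being Lamp1 and Lipa. The causes were not tested. Atp6v0d2 and some other genes had few counts, and the effect of depth on them was not tested.

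Over all genes the counts for APP control against WT control were 621 (edgeR) to 1329 (adjustment number as a linear term), and 666 to 1209 with single libraries left out. For the mix against WT control they were 1169 to 2371, and 1169 to 2012. For the mix against APP control the count of 0 became 3 with 2 groups only, 1 without WT control 1 and 5, 14 without APP control 5 and 6, and 0 to 3 with single libraries left out.

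The replicate numbers were not taken as pairs, since not every pair correlated above 0.1: deviations of same-numbered libraries correlated from -0.16 to 0.35, -0.15 to 0.59 and 0.01 to 0.48 (APP control against WT control, mix against APP control, mix against WT control), and 0, 2 and 3 of 6 libraries correlated best with their own number. With the replicate block 21, 0 and 26 lysosomal genes were called, and 1222, 1 and 2202 of all genes.

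Directions turned for estimates that were not called. For APP control against WT control, Npc1 became 0.0037 without WT control 1 and 5 and 0.034 without APP control 5 and 6, and Scarb2 became 0.021 with limma on the log2 table, 0.052 without WT control 1 and 5, 0.025 without WT control 5 and APP anti-miR-mix 6 and 0.012 without APP control 5 and 6. With single libraries left out Gla ran from -0.00996 to 0.066, Npc1 from -0.090 to 0.029 and Scarb2 from -0.046 to 0.044. For the mix against APP control without APP control 5 and 6, 26 of the 38 estimates changed sign and all lay between -0.21 and 0.16: Glb1 became -0.070, Grn -0.10 and Tpp1 -0.029, for example. Leaving out APP control 5 alone turned 19 estimates, APP control 6 alone 10, and any other single library at most 5. For the mix against WT control, Gla became 0.014 with edgeR, 0.011 with TMM size factors, 0.037 with the replicate block, 0.039 with limma and 0.060 without WT control 1 and 5, Npc1 became 0.0208, 0.0213 and 0.026 with the block, limma and those libraries left out, and Sgsh became -0.0058 without WT control 5 and APP anti-miR-mix 6. With single libraries left out these ran from -0.027 to 0.049 for Gla, -0.069 to 0.020 for Npc1 and -0.0023 to 0.078 for Sgsh.

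The predicted targets of the 3 microRNAs among these genes were not counted, since the list was held in part.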
